A study of Mus musculus with 46 samples.

Results

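The nuclear-encoded subunits of the mitochondrial respiratory chain and ATP synthase were followed across 4 cell populations sorted from mouse kidney. Members were chosen by gene name alone (Nduf genes of the a, b, c, s and v series, Sdha to Sdhd, the Uqcr genes, the Cox4 to Cox8 genes and the Atp5 genes, pseudogenes left out), and 83 of the 53465 genes in the expression table qualified, none of them on the mitochondrial chromosome (chrM). They comprised 37 genes of complex I, 4 of complex II, 8 of complex III, 18 of complex IV and 16 of ATP synthase. Complexes were assigned by gene name, so Ndufa4, now placed in complex IV, and its relative Ndufa4l2 count under complex I throughout. A mean rescaled FPKM (fragments per kilobase of transcript, scaled to library size) of at least 1 over all samples was required for testing, and 80 members passed. The other members were all of complex IV: Cox7b2 reached 0.824 in 1 of 44 samples and was listed at 0 in the rest, and Cox8b and Cox8c were listed at 0 in all 44.

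The samples came from male C57BL/6 mice aged 8 to 12 weeks that had sham surgery, unilateral ureteric obstruction (UUO) or reversal of UUO by reimplanting the ureter (rUUO), which was followed for 14 days. UUO kidneys were collected at day 2 or day 7, and the labels do not tell which day a UUO sample came from. Cells were sorted as proximal tubule (PT, binding the lectin LTL), macrophages (F4/80+), endothelial cells (CD31+) or stromal cells (PDGFRB+), which each gate defines by 1 surface feature. There were 3 sham, 4 UUO and 3 rUUO samples of PT cells, 4, 4 and 3 of macrophages, 4, 3 and 4 of endothelial cells, and 4, 4 and 4 of stromal cells. The title of PT UUO replicate 2 names both sham and UUO, and the sample was placed by its treatment label. A further sample labelled PT sham was not analysed here. All animals were wild type, and the series design gives 4 mice per group, though the labels tie no replicate number to a mouse, so p-values measure the spread between these samples.

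Complex I, complex III and complex IV pump protons across the inner mitochondrial membrane as electrons pass from NADH to oxygen, and complex II feeds in electrons from succinate as an enzyme of the TCA cycle. ATP synthase uses the proton gradient to make ATP. Mitochondrial DNA encodes a few core subunits, and the nucleus encodes all others, including every subunit of complex II. PT cells reabsorb most of the filtered solute and depend on oxidative metabolism for it.

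Some promoter motifs, which the name rule did not use, were more frequent in members than in all genes, which were not matched for base content or expression. RefSeq promoters (mouse build GRCm38.p6, 250 bases before to 50 after the gene start) were found for 66 of the 83 members. The letters GCGC, any base and TGCGC in a row, bound by nuclear respiratory factor 1 (NRF1), stood on either strand in 17 of these 66 (25.8%), against 5.19% of 27025 genes. The ETS-family letters CCGGAAG, read by GABPA among others, were in 16 (24.2%, against 9.93% of all genes). The YY1 letters, AAGATGG followed by CGGC, were in 4 (6.06%, against 0.755%), all of complex I. At least 1 motif was in 32 members. NRF1 letters were in 2 of 3 complex II, 6 of 13 ATP synthase, 7 of 32 complex I, 1 of 5 complex III and 1 of 13 complex IV promoters. The motifs were searched apart on both strands, so that letters of 1 match may also lie in another, and a match is only a description of the window. The following 30 bases are shown for members that the results below turn on, with Ndufs7 as an example of the third motif, read 5′ to 3′ on the gene's strand, with the motif (or its reverse complement, in Sdha and Sdhd) in capitals.
Sdha, NRF1, chr13:74350319-74350348, minus strand: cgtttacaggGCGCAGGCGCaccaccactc
Sdhd, NRF1, chr9:50603909-50603938, minus strand: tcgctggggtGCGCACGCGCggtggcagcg
Uqcrc1, NRF1, chr9:108936643-108936672, plus strand: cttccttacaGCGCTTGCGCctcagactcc
Cox6a1, NRF1, chr5:115349101-115349130, minus strand: caggaacgggGCGCATGCGCgctctcgctc
Sdhb, ETS, chr4:140961266-140961295, plus strand: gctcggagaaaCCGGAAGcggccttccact
Ndufb7, ETS, chr8:83566727-83566756, plus strand: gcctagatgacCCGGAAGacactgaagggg
Uqcr11, ETS, chr10:80406869-80406898, minus strand: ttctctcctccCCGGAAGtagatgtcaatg
Ndufs7, YY1, chr10:80249464-80249493, plus strand: gccgaggccAAGATGGCGGCgctggcgggt

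All levels below are FPKM, a value per gene length, rescaled so that the genes other than the 37 on chrM sum to 1000000 in each sample, because chrM genes held 58.7 to 75.6% of FPKM in PT samples and 20.2 to 45.8% in the others. Differences are on the log2(value + 1) scale from limma, with p adjusted by Benjamini-Hochberg over all 17103 genes tested and called below 0.05. A marker of each cell type was high in its own population: Lrp2 averaged 864 in PT sham and Adgre1 369 in macrophage sham. Pecam1 averaged 876 in endothelial sham and Pdgfrb 525 in stromal sham. Each of these averaged at most 18.6 in any group of the other populations. Other tubular genes were not confined in this way. The PT gene Slc34a1 averaged 5929 in PT sham, 115 in macrophage sham and 97.7 in endothelial sham. The distal nephron gene Umod averaged 626 in endothelial sham and 557 in stromal sham. Read depth is not given in the files. From the values of low genes, the samples' relative depth was estimated at 0.597 to 1.60 times the median sample.

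In sham kidneys, PT cells carried the highest level of these subunits. The 83 members together took 5.61% ± 0.414 (SD, n = 3) of rescaled FPKM in PT sham, 2.24% ± 0.555 (n = 4) in endothelial sham, 2.09% ± 0.0761 (n = 4) in stromal sham and 1.04% ± 0.117 (n = 4) in macrophage sham. The summed level was 51828, 56262 and 60093 in the PT sham samples, 17867 to 29194 in endothelial sham, 20172 to 21796 in stromal sham and 9128 to 11937 in macrophage sham. The ratio of mean sums was 5.41 against macrophages, 2.50 against endothelial cells and 2.69 against stromal cells. It was of similar size in every complex against macrophages, between 5.06 in complex III and 5.57 in complex I. Against the other populations it was highest in complex II, at 3.09 over endothelial and 3.33 over stromal cells, and lowest in complex I, at 2.27 and 2.36.

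**Figure D1:**
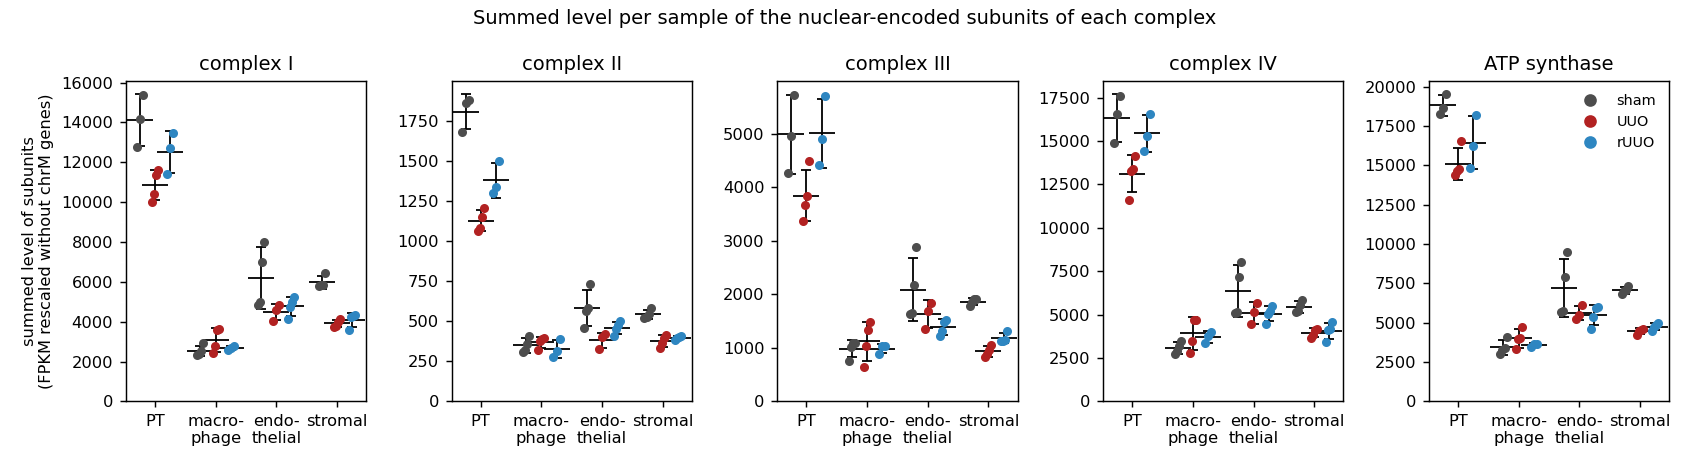
Each panel plots, for 1 complex, the summed rescaled FPKM of its nuclear-encoded subunits in each sample (points), with mean and SD (bars), in the 4 populations after sham, UUO and rUUO. PT samples lie above all others in each panel, and complex II in PT cells goes from 1679 to 1876 in sham to 1064 to 1208 in UUO.

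Nearly every member was higher in PT sham cells by test. Against macrophage sham, 76 of 80 members were higher and none lower, where 47.2% of all genes were called and 21.4% were higher, and the median difference was 2.39 (all genes: -0.11). Against endothelial sham, 70 were higher and 2 lower (all genes: 42.2% called, 12.8% higher and 29.4% lower), with a median of 1.25 (all genes: -0.44). Against stromal sham, 69 were higher and 2 lower (all genes: 48.8% called, 10.9% higher and 37.9% lower), with a median of 1.36 (all genes: -0.70). The 2 lower members were Cox4i2 and Ndufa4l2 in both comparisons. These counts rest on the scaling: on the FPKM as deposited, chrM genes included, PT cells had 31 members higher and 4 lower than endothelial cells, and 40 higher and 4 lower than stromal cells, and 12 of 216 calls of the sham comparisons turned direction.

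Core and catalytic subunits chosen for naming were mostly higher in PT cells too. Atp5b, the catalytic beta subunit of ATP synthase and the member with the highest level, was 7033, 7377 and 7732 in PT sham, and averaged 2283 in endothelial, 2248 in stromal and 1057 in macrophage sham. Atp5a1, its alpha partner, averaged 1413 in PT, 503 in endothelial and 526 in stromal sham, and was 2.52 (SE 0.14) higher than in macrophages. Uqcrfs1, the Rieske iron-sulfur protein of complex III, was 266, 268 and 268 in PT sham and 30.6 to 70.0 in endothelial and stromal sham samples, which gave 2.38 (SE 0.25, adjusted p = 1.80e-10) and 2.15 (SE 0.25, adjusted p = 2.01e-09) by limma. The Sdhc membrane anchor of complex II stood 3.33 and Atp5g3, a c-ring gene of ATP synthase, 3.36 above macrophages. Cox5a, a structural subunit of complex IV, was 2.10 above stromal cells. Ndufs7, a complex I core subunit, differed less, by 0.58 (adjusted p = 0.131) from endothelial and 0.55 (adjusted p = 0.141) from stromal cells, and neither passed the limma test.

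Levels varied widely within a complex. In PT sham, the genes counted by name under complex I ran from 0.538 (Ndufa4l2) to 1757 (Ndufa4) with a median of 296. Complex III ran from 251 (Uqcrc1) to 1221 (Uqcr10) with a median of 539.7. The ATP synthase genes ran from 12.5 (Atp5s) to 7381 (Atp5b) with a median of 796. Complex II was the most even, from 272 (Sdhb) to 634 (Sdha). The order of members was much alike across populations: over the 80 members, log2 levels in PT sham correlated with those in macrophage, endothelial and stromal sham at Pearson r of 0.94, 0.91 and 0.81 (Spearman rho 0.90, 0.93 and 0.90), a description across genes that share libraries and gene length. Many of these genes have processed pseudogenes elsewhere in the genome, so how reads were split between copies is uncertain.

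After UUO, PT cells showed lower levels of 11 subunits, which came from all 5 complexes. The largest fall was in Cox6a2 (-2.36), a gene near the floor, and the next was in Ndufs1 (-1.14). Cox6a2 averaged 2.03 over all samples and passed the filter only through its PT sham and PT rUUO samples. The summed level fell outside the sham range, from 51828 to 60093 in sham to 41459.9, 42731, 43904 and 47967 in UUO, a ratio of means of 0.785. Of 80 members, 11 passed the test as lower (13.8%, against 3.93% of all genes) and 1 as higher (1.25%, against 14.8%), so that 12 changed where 18.7% of all genes did. The median difference was -0.35 where that of all genes was 0.29, and 69 of 80 differences were negative. In 36 members every UUO sample lay below every sham sample (7.13% of all genes did so), and in 2, Cox7a2l and Ndufa7, all UUO values were above all sham values (20.1% of all genes).

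**Figure D2:**
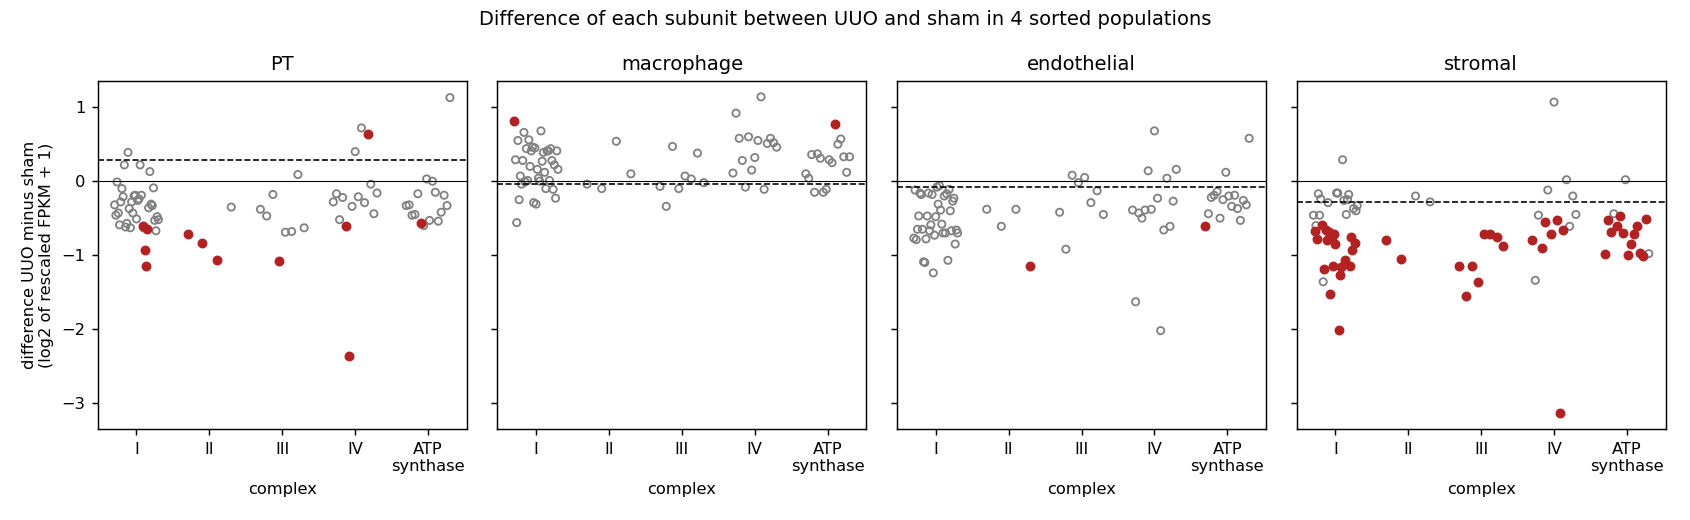
Each point is 1 subunit's difference between UUO and sham (log2 of rescaled FPKM + 1), by complex and population. Filled red points passed the limma test, grey open points did not, and the dashed line is the median of all 17103 genes. In PT cells most subunits lie below the dashed line at 0.29, and in stromal cells 50 subunits passed as lower.

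Complex II stood out by count in PT cells. Sdha, the flavoprotein that oxidizes succinate (chromosome 13, 74322254 to 74350280, mm10), was 604, 644 and 655 in sham, 368, 386, 389 and 395 in UUO, and 416, 455 and 469 in rUUO. Sham, UUO and rUUO did not overlap, and the UUO difference was -0.72 (SE 0.18, adjusted p = 0.00333, limma). Sdhb, the iron-sulfur subunit (chromosome 4, 140961203 to 140979193), was 219, 292 and 305 in sham and 126, 133, 154 and 198 in UUO (-0.84, SE 0.30, adjusted p = 0.0426, limma).

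Sdhc, a membrane anchor (chromosome 1, 171127165 to 171150603), was 371, 376 and 410.2 in sham and 159.9, 168, 169.7 and 247 in UUO (-1.07, SE 0.27, adjusted p = 0.00340, limma). Sdhd, the other anchor (chromosome 9, 50596357 to 50603812), was 480.2, 527 and 529 in sham and 390.2, 391, 392 and 433 in UUO, and its difference of -0.35 did not pass (adjusted p = 0.198, limma). All 4 genes of the complex were thus lower in every UUO sample than in every sham sample, and 3 of 4 passed the test. The summed level of complex II was 0.624 times that of sham, against 0.768 for complex I, 0.770 for complex III and 0.802 for both complex IV and ATP synthase.

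In complex I, 4 of 37 members passed, all lower. Ndufs1, the largest core subunit, which carries iron-sulfur clusters (chromosome 1, 63143596 to 63176833), was 160.0, 162 and 165 in sham and 63.4, 65.5, 76.2 and 91.4 in UUO, all below the sham samples (-1.14, SE 0.32, adjusted p = 0.0103, limma). The accessory subunits Ndufc2 (-0.93, from 540.4, 580.5 and 617 to 254, 317, 319 and 325) and Ndufb9 (-0.61, from 780.3, 797 and 843 to 489, 522, 525 and 586) also fell without overlap. The core subunits Ndufv1 (-0.67, adjusted p = 0.137), Ndufs8 (-0.53, adjusted p = 0.0722), Ndufv2 (-0.48, adjusted p = 0.274), Ndufs3 (-0.36, adjusted p = 0.499) and Ndufs7 (-0.09, adjusted p = 0.929) did not pass in limma.

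Complex III gave 1 call of 8. Uqcrc1, a core subunit facing the matrix (chromosome 9, 108936633 to 108949623), was 211, 269 and 273 in sham and 100.1, 111, 130.2 and 132 in UUO (-1.08, SE 0.31, adjusted p = 0.0112, limma). Its partner Uqcrc2 (-0.69, adjusted p = 0.0510) and Uqcrfs1 (-0.68, adjusted p = 0.0517) lay just outside the limma threshold, as did Ndufa13 of complex I (-0.59, adjusted p = 0.0518), and none of these overlapped between sham and UUO.

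In complex IV, 3 of 15 tested members passed, in both directions. Cox6a2, the heart and muscle form of subunit 6a (chromosome 7, 128205435 to 128206387), was low throughout, at 6.21, 7.87 and 11.4 in sham and 0, 0.566, 1.18 and 2.10 in UUO (-2.36, SE 0.51, adjusted p = 0.000568, limma). Cox6a1, the broadly expressed form, went from 2109.7, 2667 and 2713 to 1475, 1576, 1700.4 and 1780.3 (-0.61, adjusted p = 0.0119, limma). Cox7a2l, a Cox7a relative that takes part in joining complexes III and IV into supercomplexes (chromosome 17, 83501919 to 83514333), was the 1 member that rose, from 226, 297 and 311 to 372, 395, 472 and 488 (0.64, SE 0.18, adjusted p = 0.00770, limma).

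The larger structural subunits of complex IV and the ATP synthase catalytic pair moved less. Cox4i1 differed by -0.28 (adjusted p = 0.495), Cox5a by -0.52 (adjusted p = 0.122), Atp5a1 by -0.33 (adjusted p = 0.109) and Atp5b by -0.32 (adjusted p = 0.244), none past the limma threshold. Atp5f1, a peripheral stalk subunit, was the 1 of 16 ATP synthase genes that passed, from 272, 335 and 364 to 205, 214, 222 and 229.6 (-0.56, adjusted p = 0.0303, limma).

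Median differences per complex were -0.36 in complex I, -0.78 in complex II, -0.55 in complex III, -0.22 in complex IV and -0.33 in ATP synthase. On the FPKM as deposited these became -0.06, -0.47, -0.25, 0.05 and -0.03, so that the sign of complex IV flipped, and 3 members were called, Ndufs1 and Sdhc as lower and Cox7a2l as higher, with Cox6a2 under the filter. Several calls were near the threshold: without PT sham replicate 1, 7 members were called, and those lost included Atp5f1, Cox6a1, Ndufb9 and Sdhb. The rise of Cox7a2l was not called without PT sham replicate 4. Without PT UUO replicate 2, the sample with both surgeries in its title, 11 members were called, and Atp5f1 and Sdhb were lost.

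**Figure D3:**
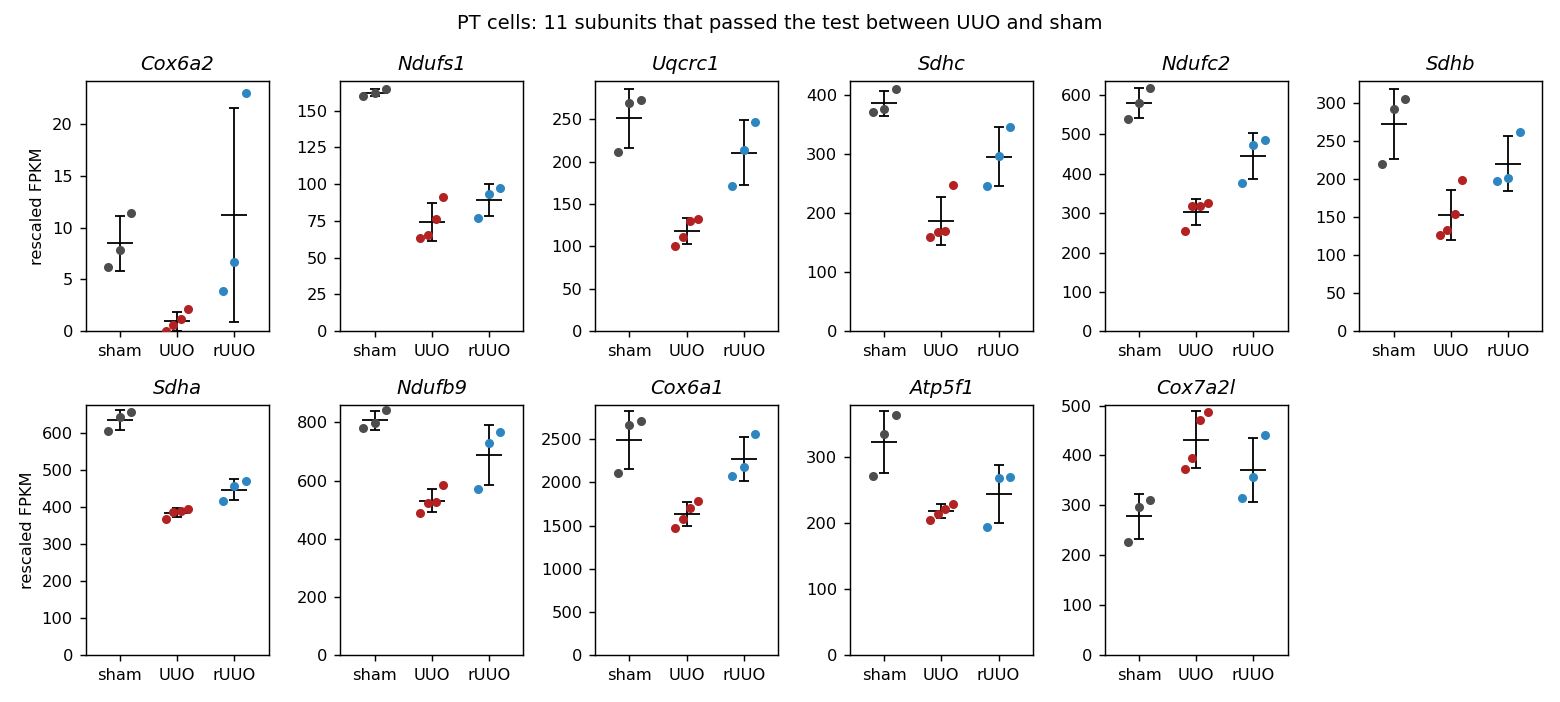
Rescaled FPKM in each PT sample (points) with mean and SD (bars) after sham, UUO and rUUO, for 11 of the 12 subunits that passed the limma test between UUO and sham. Sham and UUO points do not overlap in any of the 11 panels, and Cox7a2l alone is higher in UUO.

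Other markers moved with UUO in the PT samples. The summed level of 8 PT markers was 9283 to 10334 in sham and 1747 to 2588 in UUO, with 7 of the 8 called lower. The sum of 8 distal nephron markers went from 125 to 231 in sham to 724 to 832 in UUO, with 4 of 8 higher, among them Umod, which averaged 72.7 and 491. Stromal markers summed to 76.2 to 107 and 134 to 218, and macrophage markers to 58.9 to 109 and 55.0 to 115. The part of these shifts in the subunit differences was not tested, and in sorted bulk samples fewer cells of a type and less RNA per cell cannot be told apart.

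After reversal, the mean summed subunit level of PT cells lay between UUO and sham. It was 50791 ± 4447 (SD, n = 3), or 0.906 of sham. The rUUO samples, at 46409, 50663 and 55301, overlapped both the UUO and the sham range. By complex, the ratio to sham was 0.888 in complex I, 0.763 in complex II and 1.00 in complex III. It was 0.945 in complex IV and 0.874 in ATP synthase. Between rUUO and UUO, 1 of 80 members passed (1.33% of all genes did, 0.462% as higher): Cox6a2, at 3.91, 6.66 and 23.0 in rUUO (2.42, SE 0.51, adjusted p = 0.00767, limma). That call was lost without PT rUUO replicate 4 and with a pseudocount of 0.1. The median difference between rUUO and UUO was 0.27 (all genes: -0.11), 69 of 80 were positive, and in 16 members every rUUO sample lay above every UUO sample (3.87% of all genes), including Sdha, Uqcrc1, Cox6a1, Ndufc2 and Atp5g1.

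Between rUUO and sham in PT cells, limma called 0 of 80 members (7.28% of all genes were called). At an unadjusted p under 0.05 there were 7, with no share of all genes at that threshold given here. The median was -0.10 (all genes: 0.15). In 20 members every rUUO sample was still below every sham sample (6.92% of all genes), among them Sdha, Sdhc, Sdhd, Ndufs1, Uqcrc2, Atp5a1 and Atp5b, and in 1, Cox7a2l, every rUUO sample was above (15.2%). Atp5b was 5049, 5578 and 6134 in rUUO, and Ndufs1 was 76.9, 93.6 and 97.3, values close to those of UUO. These comparisons share the sham and UUO samples, so they are given side by side only. PT markers summed to 4689 to 5217 and distal nephron markers to 332 to 737 in PT rUUO.

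By number of members called lower, stromal cells showed the broadest fall. That count does not compare the populations, whose UUO differences are tested against that of PT cells further below. Sham samples had summed subunit levels of 20172 to 21796, which fell to 12849 to 14181 after UUO and stood at 13014 to 15290.3 after reversal, with no overlap of sham with either. In UUO, 50 of 80 members were called lower and none higher (62.5%, where 27.7% of all genes were called and 18.2% were lower), with a median of -0.69 against -0.28 for all genes, and 76 of 80 differences were negative. Every UUO sample lay below every sham sample in 43 members (16.9% of all genes). On the FPKM as deposited, 25 were called and the median was -0.52.

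Complex III was called in full in stromal UUO, with 8 of 8 lower and a summed level of 0.502 times sham. ATP synthase had 13 of 16 lower (median -0.69), complex I 20 of 37 (-0.67), complex IV 7 of 15 (-0.55) and complex II 2 of 4 (-0.53). The complex II members called were Sdha (-0.79, adjusted p = 0.000365) and Sdhb (-1.05, adjusted p = 0.00352), whereas the anchors Sdhc (-0.20, adjusted p = 0.596) and Sdhd (-0.28, adjusted p = 0.229) did not pass in limma.

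The largest stromal falls were in Cox7a1, Ndufb7 and Uqcr11. Cox7a1, the muscle form of subunit 7a (chromosome 7, 30184144 to 30186078), was 9.63, 18.1, 29.1 and 35.2 in sham and 0, 0.715, 1.84 and 6.46 in UUO (-3.14, SE 0.80, adjusted p = 0.00265, limma). Ndufb7, a complex I accessory subunit on the intermembrane side (chromosome 8, 83566671 to 83571626), was 96.4, 126, 131 and 147 in sham and 17.5, 20.6, 36.6 and 59.7 in UUO (-2.01, SE 0.30, adjusted p = 1.91e-06, limma).

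Uqcr11, a small accessory subunit of complex III, was 286, 324, 374 and 382 in sham and 76.7, 115, 133 and 149 in UUO (-1.55, SE 0.35, adjusted p = 0.000782, limma). Of the core, catalytic or larger structural subunits chosen for naming, Uqcrc1 fell by 1.36, Ndufs1 by 1.06, Atp5a1 by 0.99, Ndufs7 by 0.93, Ndufv1 by 0.84, Cox4i1 by 0.80, Uqcrfs1 by 0.72 and Atp5b by 0.52 on the log2 scale, all called by limma. Cox5a (-0.46, adjusted p = 0.104) was not, and neither were the complex I core subunits Ndufv2 (-0.40, adjusted p = 0.281), Ndufs8 (-0.37, adjusted p = 0.152) and Ndufs3 (-0.25, adjusted p = 0.552).

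Most of this difference was still present after reversal. In stromal rUUO, 29 members were lower than in sham and none higher (36.2%, where 14.9% of all genes were called and 8.07% were lower), with a median of -0.56 (all genes: -0.08): 10 of 37 in complex I, 1 of 4 in complex II, 3 of 8 in complex III, 6 of 15 in complex IV and 9 of 16 in ATP synthase. On the deposited FPKM it was 9 lower and 1 higher. No sample overlapped in 38 members (10.8% of all genes). The largest differences from sham were in the isoforms Cox7a1 (-3.61, adjusted p = 0.00111), Cox4i2 (-2.86, adjusted p = 0.00317) and Ndufa4l2 (-2.12, adjusted p = 0.0172) in limma.

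Against stromal UUO, 2 members were higher in rUUO (4.61% of all genes were called, 3.20% as higher). Ndufb10, a complex I accessory subunit, was 158, 171, 173 and 188 in sham, 52.0, 56.1, 62.9 and 66.9 in UUO, and 89.2, 92.5, 95.6 and 139.8 in rUUO (0.78, SE 0.19, adjusted p = 0.0120, limma). Ndufb7 was 40.9, 45.4, 67.1 and 114 in rUUO (1.01, SE 0.30, adjusted p = 0.0424, limma). Both remained below sham by limma (adjusted p = 0.00587 and 0.0189). Neither call between rUUO and UUO held without stromal rUUO replicate 4, and that of Ndufb7 was also lost without stromal rUUO replicate 2 or UUO replicate 2 or 4, with quantile normalization, without the filter and with the groups fitted apart. Without overlap, 6 members were higher in rUUO than in UUO (6.36% of all genes) and 1, Atp5d, was lower (2.88%).

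The makeup of the stromal samples changed with surgery. Distal nephron markers summed to 958 to 1454 in stromal sham, against 61.7 to 146 after UUO and 116 to 219 after rUUO, with 8 of 8 lower in each. PT markers summed to 96.5 to 161, 17.5 to 38.3 and 20.4 to 41.4, and podocyte markers averaged 307, 51.8 and 164. Endothelial markers were lower in 5 of 8 in UUO. Of 8 stromal markers, 5 were higher and 1 lower in UUO, and they summed to 3700.2 to 6705 in sham and 17463 to 26577 in UUO. Pdgfrb itself averaged 525 and 259. chrM genes held 34.0 to 45.8% of FPKM in sham and 21.5 to 26.4% in UUO. Their part in the subunit differences was not tested.

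**Figure D4:**
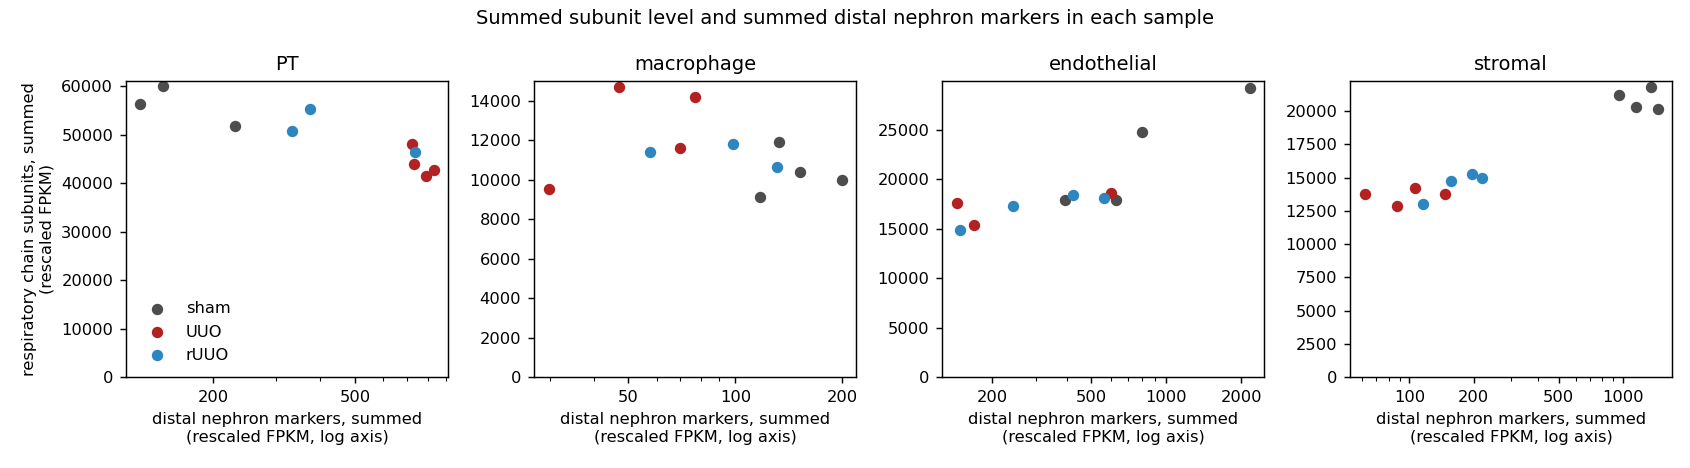
Each point is 1 sample, with its summed distal nephron markers (rescaled FPKM, log axis) against its summed subunit level (rescaled FPKM), by population and surgery. Stromal sham samples lie apart at 958 to 1454 on the marker axis and 20172 to 21796 on the subunit axis, and 1 endothelial sham sample is highest on both, at 2164 and 29194.

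Endothelial cells gave few calls. The summed subunit level was 17867, 17918, 24798 and 29194 in sham and 15396, 17594 and 18614 in UUO, which overlap. It averaged 17202 in UUO and 17149.8 in rUUO. Between UUO and sham 2 of 80 members were lower (2.12% of all genes were called, 1.18% lower). The median was -0.39 (all genes: -0.08), and 72 of 80 differences were negative, including 37 of 37 in complex I. Members measured in the same samples are not independent, and no share of all genes is given for these signs. Every UUO sample lay below every sham sample in 13 members (6.62% of all genes).

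Sdhd was 142, 169, 174 and 229 in endothelial sham, 69.0, 75.6 and 91.9 in UUO, and 106, 134, 149 and 175 in rUUO. UUO lay below both other groups, and the difference from sham was -1.15 (SE 0.18, adjusted p = 9.98e-05, limma). It was higher in rUUO than in UUO (0.82, SE 0.18, adjusted p = 0.0265, limma), the 1 member called there (0.386% of all genes were called, 0.322% as higher), a call lost without UUO replicate 2 or 4 or rUUO replicate 4 or 6.

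Atp5a1 was 375, 415, 478 and 744 in endothelial sham and 295, 312 and 349.7 in UUO (-0.61, SE 0.14, adjusted p = 0.0133, limma), a call lost without sham replicate 3 or UUO replicate 2 or 4. Without sham replicate 1, 5 members were called. Between rUUO and sham only Cox4i2 was called (1.79% of all genes, 0.444% as lower), at 0.554, 6.51, 8.47 and 27.3 in sham and 0, 0, 0.259 and 0.297 in rUUO (-2.73, SE 0.70, adjusted p = 0.0279, limma). This call was lost without sham replicate 1 or 3, without any 1 of the 4 rUUO replicates, without the filter, with the replicate block and with the groups fitted apart, and 4 and 5 members were called without sham replicate 1 and 2. Without overlap, 7 members were lower in rUUO than in sham (2.02% of all genes), and against UUO 2 were higher (9.55%) and 3 lower (1.53%).

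Endothelial sham replicate 3 had the highest distal nephron marker sum, 2164, where the sham samples began at 394, and the highest subunit sum. Distal markers summed to 144 to 598 in UUO and 148 to 562 in rUUO, and podocyte markers averaged 1048, 558 and 910.1 in sham, UUO and rUUO. PT markers summed to 465 to 734 in endothelial sham and 255 to 423 in UUO, with 2 of 8 called lower and all 8 differences negative (median -1.36). With the sham and the UUO sample highest in distal markers left out, a choice made after seeing the data, Sdhd was still called between UUO and sham and Atp5a1 was not, the median of the members was -0.28, and no member was called between rUUO and either group. The part of carried tubular RNA was otherwise not tested.

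Macrophages had the lowest levels, and the share of members called after UUO did not exceed that of all genes. The members' share of rescaled FPKM was 1.04% ± 0.117 in sham, 1.25% ± 0.240 (n = 4) in UUO and 1.13% ± 0.0588 (n = 3) in rUUO. Between UUO and sham, 2 of 80 were higher and none lower (2.50%, where 4.76% of all genes were called, 2.74% as higher). The median was 0.27 (all genes: -0.04), and 59 of 80 were positive. With quantile normalization the members' median was 0.12, and 32 of 80 were negative. In 5 members the lowest UUO value exceeded the highest sham value (4.92% of all genes): Atp5c1, Atp5j, Cox7a2l, Cox8a and Ndufa8.

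The macrophage calls were Atp5j and Ndufa1. Atp5j, coupling factor 6 of ATP synthase, was 99.5, 104, 123 and 147 in sham and 148, 173, 190.2 and 335 in UUO (0.77, SE 0.18, adjusted p = 0.00674, limma). Ndufa1, a small complex I subunit, was 111, 125, 137 and 174 in sham and 167, 169, 296 and 382 in UUO, which overlap (0.81, SE 0.23, adjusted p = 0.0284, limma). Neither was called without macrophage UUO replicate 1, and 5 members were called without UUO replicate 2 or 4, and Ndufa1 was also lost without sham replicate 1, 2 or 3 or UUO replicate 3. Between rUUO and UUO (0.123% of all genes called) and between rUUO and sham (3.42%) limma called no member. At an unadjusted p under 0.05, 8 members differed between rUUO and UUO and 7 between rUUO and sham. No share of all genes at that threshold is given here, so these counts are not read as differences. All rUUO values were below all UUO values in 6 members (3.50% of all genes). Against sham they were above in 8 members (6.61%) and below in 4 (8.62%).

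Markers of other cells also differed in the macrophage samples. Lymphocyte and neutrophil markers summed to 9.76 to 19.2 in macrophage sham and 87.9 to 250.2 in UUO, with 5 of 7 tested higher. PT markers summed to 163 to 215 and 26.3 to 48.9, with 7 of 8 lower, and distal nephron markers to 117 to 199 and 29.8 to 76.9, with 2 of 8 lower. Stromal markers summed to 26.0 to 109 and 85.7 to 176, with 2 of 8 higher. Their part in the subunit differences was not tested.

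Whether the UUO difference itself varied between populations was tested for PT cells against each of the others. The comparisons share the PT samples. Against macrophages, 15 of 80 members had a lower UUO difference in PT cells and none a higher one (18.8%, where 11.3% of all genes were called and 2.13% were lower), 7 of them in complex I and 4 in ATP synthase. Sdhc was -1.07 in PT cells and 0.54 in macrophages (difference -1.61, SE 0.37, adjusted p = 0.00216, limma). Ndufa1 was -0.32 and 0.81 (-1.13, SE 0.34, adjusted p = 0.0208, limma), and Cox6a2 was -2.36 and 0.60 (-2.96, SE 0.69, adjusted p = 0.00270, limma). Cox6a2 was near the floor in macrophages, at 0 to 3.42 in sham and 0.252 to 4.11 in UUO, so its difference is mostly its fall in PT cells. The count was 8 without PT sham replicate 1, 9 without macrophage UUO replicate 1 and 1 on the deposited FPKM.

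Against stromal cells, 9 members had a higher and 1 a lower UUO difference in PT cells (11.2% and 1.25%, against 21.1% and 5.35% of all genes, 26.4% in all), so the share of members was below that of all genes. Cox7a1 was 0.72 in PT cells and -3.14 in stromal cells (3.86, SE 1.18, adjusted p = 0.0127, limma). Ndufb7 was 0.22 and -2.01 (2.23, SE 0.44, adjusted p = 0.000179, limma), and Ndufb10 was -0.28 and -1.52 (1.24, SE 0.29, adjusted p = 0.00102, limma). The 1 lower was Cox6a2, at -2.36 and -0.12 (-2.24, SE 0.69, adjusted p = 0.0135, limma), a gene listed at 0 in all 4 stromal UUO samples and in 3 of 4 stromal sham samples. Against endothelial cells 2 of 80 passed (9.92% of all genes, 8.74% higher and 1.18% lower), Sdhd (0.81, adjusted p = 0.0366) and Cox6a2 (-2.50, adjusted p = 0.0174) in limma, and the count was 0 without PT sham replicate 2. Cox6a2 was listed at 0 in all 4 endothelial sham samples and at 0, 0 and 0.340 in UUO. It had at most 0.391 from which to fall in endothelial or stromal sham samples, so both differences restate its fall in PT cells. The call of Sdhd was also lost without PT sham replicate 1 or 4, PT UUO replicate 4, endothelial sham replicate 3 or endothelial UUO replicate 2 or 4.

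Several subunits exist as paralogous forms, and the minor forms had their own distribution. Ndufa4l2, a hypoxia-responsive relative of Ndufa4 (a subunit now placed in complex IV), was 94.6, 132, 174 and 204 in stromal sham (chromosome 10, 127514967 to 127517154), and averaged 6.31 or less in the other sham groups. It was 18.6, 57.9, 89.6 and 100.4 in stromal UUO (-1.36, adjusted p = 0.108, limma) and 24.2, 27.8, 37.0 and 45.5 in rUUO. It made up 20.9% ± 5.50 (SD, n = 4) of Ndufa4 plus Ndufa4l2 in stromal sham.

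Cox4i2, the form of subunit 4 induced by low oxygen (chromosome 2, 152754173 to 152765037), was 18.6, 22.9, 26.5 and 36.0 in stromal sham, or 3.08% ± 0.893 of Cox4i1 plus Cox4i2. It was at most 0.427 in PT sham, and was listed at 0 in all 4 PT UUO samples. In stromal rUUO it was 0, 0, 9.07 and 16.3. Both genes are known from pericytes, and the pericyte gene Rgs5 averaged 668, 491 and 193 in stromal sham, UUO and rUUO. Rgs5 is among the 8 stromal markers, whose sum went the other way, averaging 4758, 22886 and 12912. The part of pericyte number in the levels of Ndufa4l2 and Cox4i2 was not tested.

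The Cox7a forms were split by population. Cox7a2l averaged 278 in PT, 338 in macrophage, 331 in endothelial and 269 in stromal sham, and limma called no difference of PT sham from any of them. Cox7a2, the broadly expressed form, averaged 771, 139, 380.2 and 222. Cox7a2l thus took 24.7% of the family's level in PT sham and 71.0% in macrophage sham. Cox7a1 averaged 72.4 in PT sham, spread from 20.8 to 151, and was 3.96 (SE 0.86, adjusted p = 0.000195, limma) above macrophages.

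Cox6b2, the testis form of subunit 6b, was 15.5, 18.9 and 29.5 in PT sham and 0.462 to 4.99 in endothelial sham (3.07, SE 0.70, adjusted p = 0.000388, limma), and it was 23.5 to 44.7 in stromal sham and 35.3 to 197 in stromal UUO (adjusted p = 0.230, limma). Of the 3 c-ring genes in PT cells, Atp5g1 averaged 1319 in sham and 876 in UUO, Atp5g3 1065 and 737, and Atp5g2 77.7 and 77.5. Atp5g1 and Atp5g3 did not overlap between sham and UUO, and no c-ring gene was called.

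**Figure D5:**
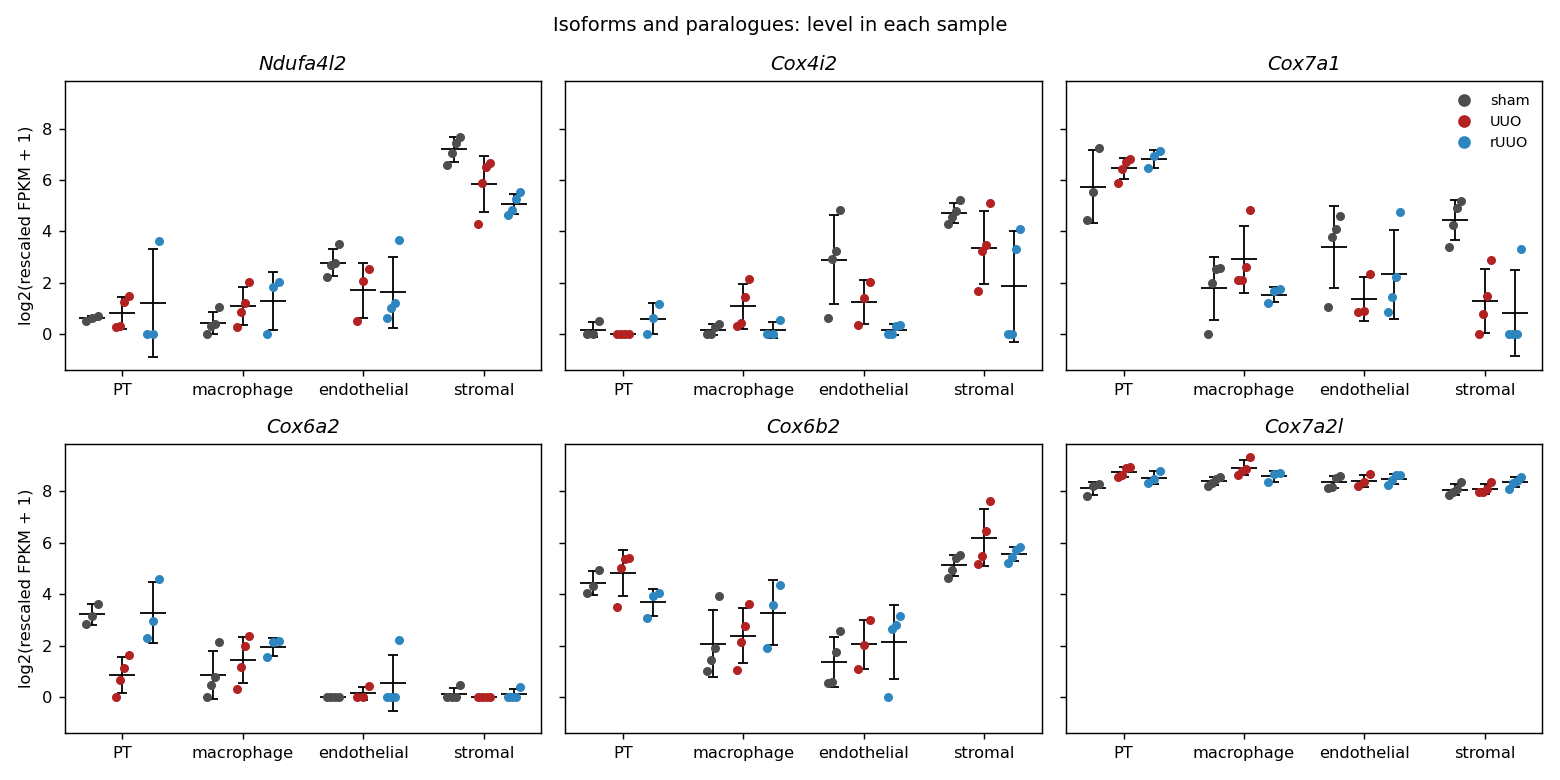
Level of 6 minor or paralogous subunit genes in each sample, as log2(rescaled FPKM + 1), with mean and SD, in 4 populations after sham, UUO and rUUO. Ndufa4l2 and Cox4i2 are highest in stromal cells and lower after rUUO, Cox6a2 in PT cells falls in UUO, and Cox7a2l averages 269 to 338 FPKM in the sham groups of the 4 populations.

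Other mitochondrial gene lists help to place the subunits. In PT UUO, 3 of 15 genes listed under the TCA cycle were lower, Pcx (-1.86), Idh3g (-0.94) and Dlst (-0.90). Pcx, pyruvate carboxylase, is on that list but is not a step of the cycle itself. All 15 differences were negative with a median of -0.57. None of 46 assembly factors of the respiratory complexes and none of 23 protein import genes passed in limma. At an unadjusted p under 0.05 there were 1 and 2 of them, with no share of all genes at that threshold given here. Of 78 mitochondrial ribosomal proteins, Mrps6 (1.69) and Mrpl52 (0.94) were higher and Mrps21 (-0.90) lower. Among 15 regulators of mitochondrial biogenesis, Ppara, a regulator of fatty acid oxidation genes, was lower (-1.96) and Pprc1 higher (1.31).

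Of 15 mobile carriers and subunits outside the name rule, Coq7 of ubiquinone synthesis was higher (1.63) and Etfb, an electron transfer flavoprotein, lower (-0.83). Of 11 hypoxia response genes, the glucose transporter Slc2a1 (3.54) and the kinase Pdk1 (1.39), which holds pyruvate back from the TCA cycle, were higher, and none was lower. All-gene shares called in PT UUO were 14.8% higher and 3.93% lower.

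In stromal UUO, where 27.7% of all genes were called and 18.2% were lower, 8 of 15 TCA cycle genes, 6 of 15 carriers, 6 of 15 biogenesis regulators, 8 of 78 ribosomal proteins and 2 of 23 import genes were lower and none higher, 8 of 46 assembly factors were lower and 1 higher, and 3 of 11 hypoxia genes were higher and 1 lower. The biogenesis regulators called were Ppargc1a (-2.49), Ppargc1b (-2.50), Esrrg (-2.46), Polrmt (-1.43), Nrf1 (-1.27) and Tfam (-1.03). In macrophage UUO, 5 of 78 ribosomal proteins, 1 assembly factor and 1 carrier were higher and 1 TCA gene lower (all genes: 4.76% called, 2.74% higher). In endothelial UUO, 1 TCA gene, 1 carrier and 1 hypoxia gene were lower, and no gene of the other lists passed (all genes: 2.12% called, 1.18% lower).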

How the data were processed

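Sorted-cell RNA was made into amplified cDNA (Ovation RNA-Seq System V2) before Illumina HiSeq sequencing. The submitters' processing notes name FastQC, Bowtie2, RSEM and DESeq2 and the mm10 build, with no versions. The authors deposited gene FPKM, not counts, so absolute depth is unknown and no count test was run. Of 46 value columns 44 were used, because 2 bear the same name and could not be assigned to a sample. FPKM were rescaled per sample to the same total without chrM genes. After a filter (mean of at least 1), log2(value + 1) of all 12 groups was fitted in 1 limma model (limma 3.58.1, R 4.3.3, trended prior) with group as the only term, 18 contrasts, two-sided tests, Benjamini-Hochberg over 17103 genes and a threshold of 0.05. The steps were tested on simulated data. Figures and sums used Python 3.11.15.

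Coordinates are those of the deposited file, and all 83 members matched GENCODE M21 by gene ID, 71 with the same start and end. The members, gene lists and tests were chosen with earlier results of these data known. Named with values are, per contrast, the 3 largest rises and falls past the threshold, a choice of core, catalytic and larger structural subunits, the paralogous forms, and up to 3 genes per other list in PT UUO. Other genes named were chosen after their values were seen. The values of 1 member are not reported here. Alternatives were the FPKM as deposited, quantile normalization, no filter, a pseudocount of 0.1, groups fitted apart, a replicate block and leaving out each replicate. Groups fitted apart took the sham, UUO and rUUO groups of a population for surgery contrasts, and only the groups compared for the others.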

Additional observations from a re-analysis of the deposited data

Results flagged for a closer look

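A sample stood apart from the others of its group by Dixon's test in 22 of 320 groups of 4 samples (6.88%), over 40 members and sums, where chance gives about 1 in 20. By complex, the summed level of complex I was 6432 in stromal sham replicate 4 (others 5772 to 5857) and 3585 in stromal rUUO replicate 2 (others 4224 to 4317).

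Endothelial sham replicate 3 was highest in Sdha (258, others 186 to 192), Ndufs1 (62.0, others 34.1 to 38.2), Ndufv1 (125, others 91.4 to 95.0) and Uqcrc1 (95.4, others 68.5 to 70.6). Endothelial rUUO replicate 6 was highest in Sdha (219, others 148 to 154), Ndufa4l2 (11.7, others 0.542 to 1.32) and Cox6a2 (3.59, others at 0). Endothelial rUUO replicate 4 was highest in Cox7a1 (26.3, others 0.807 to 3.73).

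In PT UUO, replicate 4 was highest in Sdhc (247, others 159.9 to 169.7) and Sdhd (433, others 390.2 to 392), and replicate 1 in Atp5j (684, others 524 to 543). In stromal samples, Atp5j was 327 in UUO replicate 1 (others 197 to 215), Ndufb10 139.8 in rUUO replicate 4 (others 89.2 to 95.6) and Cox7a1 9.05 in rUUO replicate 2 (others at 0). Cox6a2 was 0.391 in stromal sham replicate 2 and 0.326 in stromal rUUO replicate 6, with the others at 0.

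In macrophages, UUO replicate 1 was highest in Cox7a1 (27.8, others 3.31 to 5.11) and Sdhc (66.8, others 49.4 to 52.3), sham replicate 2 in Cox6b2 (14.4, others 1.02 to 2.74) and sham replicate 4 in Sdhd (154, others 103 to 105).

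The UUO difference in PT cells differed from that in macrophages in 15 members, from that in endothelial cells in 2 and from that in stromal cells in 10, by limma's test of the difference. Against macrophages it was -2.96 for Cox6a2, -1.61 for Sdhc and -1.13 for Ndufa1. Against endothelial cells it was 0.81 for Sdhd and -2.50 for Cox6a2. Against stromal cells it was 3.86 for Cox7a1, 2.23 for Ndufb7, 1.24 for Ndufb10 and -2.24 for Cox6a2. Cox6a2 was listed at 0 in all 4 endothelial sham samples and in 3 of 4 stromal sham samples, so its differences from these populations restate its fall in PT cells. In macrophages it was near the floor too, at 0 to 3.42 in sham and 0.252 to 4.11 in UUO.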

How the results depend on the processing

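Counts of called members stayed within 1.5 times their value in 74 of 108 combinations of contrast and alternative that used all samples, and in 117 of 153 with 1 replicate left out. No called surgery difference, or difference of differences, turned direction. The causes were not tested. On the deposited FPKM, counts were 3 (PT UUO against sham), 0 (PT rUUO against UUO), 1 (endothelial UUO against sham), 0 (endothelial rUUO against UUO), 25 (stromal UUO against sham), 10 (stromal rUUO against sham), 35 and 44 (PT against endothelial and stromal sham), and 1 and 1 for the UUO difference in PT against macrophages and endothelial cells. The median of all genes moved with scaling, in PT UUO against sham from 0.29 to 0.39 (deposited) and -0.01 (quantile). With quantile normalization, counts were 1 (PT rUUO against sham), 1 (macrophage UUO against sham), 0 and 5 (endothelial rUUO against UUO and sham), and 9, 1 and 21 for the UUO difference in PT against macrophages, endothelial and stromal cells. With the groups fitted apart they were 27, 3 and 3 (PT UUO against sham, rUUO against UUO and rUUO against sham). Outside PT cells they were 0 (macrophage UUO against sham), 1, 0 and 0 (endothelial) and 1 (stromal rUUO against UUO). For the UUO difference, PT against endothelial, the count was 1. A pseudocount of 0.1 gave 0 (PT rUUO against UUO) and 1 (UUO difference, PT against endothelial). Without the filter they were 0 (endothelial rUUO against sham) and 1 (stromal rUUO against UUO). With the endothelial samples highest in distal markers left out, chosen after seeing the data, they were 1, 0 and 0 in endothelial cells and 0 for the UUO difference.

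Deviations of same-numbered samples were little correlated. Between populations, 2 of 57 same-numbered pairs were correlated above 0.1 (highest 0.13), against 0 of 184 differently numbered pairs (highest 0.07). Between surgeries it was 0 of 35 and 0 of 126. Weak correlation over all genes cannot tell whether same-numbered samples came from the same mouse. With the number as a block, counts were 14 (PT UUO against sham), 1 (PT rUUO against sham), 0 and 0 (endothelial rUUO against UUO and sham) and 1 (UUO difference, PT against endothelial).

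With 1 replicate left out, counts ranged from 7 to 12, 0 to 1 and 0 to 0 in PT cells (UUO against sham, rUUO against UUO, rUUO against sham), 0 to 5, 0 to 0 and 0 to 1 in macrophages, 1 to 5, 0 to 1 and 0 to 5 in endothelial cells, and 37 to 48, 0 to 2 and 20 to 27 in stromal cells. They ranged from 75 to 76, 64 to 72 and 67 to 71 for PT sham against macrophage, endothelial and stromal sham, and from 8 to 22, 0 to 3 and 9 to 12 for the UUO difference in PT against the same. Without counts or depth, low members such as Cox6a2 have no stated counting error.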
